A study of Mus musculus with 6 samples.

Results

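Transcript levels of 8 genes with known roles in the dental follicle, the periodontal ligament and tendon, or in parathyroid hormone-related protein (PTHrP) signaling, were compared between molars of *Osr2-Cre;Ror2fl/fl* mice and *Ror2fl/fl* controls. The genes were *Postn*, *Tnc*, *Tnn*, *Scx*, *Tnmd*, *Mkx*, *Pthlh* and *Pth1r*. They and all lists used below were chosen by name, with earlier results of these data known. Each of the 8 was found by its symbol among the 27506 genes of the count table. All 8 were among the 19330 genes that passed the filter on low counts.

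The study asked what loss of the Wnt receptor gene *Ror2* does to molar development, and sequenced RNA of mandibular first molar dental pulp at postnatal day 3.5 (PN3.5) in C57BL/6 mice. There were 3 control libraries (*Ror2fl/fl*, no Cre named in the label) and 3 mutant libraries (*Osr2-Cre;Ror2fl/fl*), and both groups carried floxed *Ror2* alleles. In the breeding scheme, sires had the Cre transgene and 1 floxed allele (*Osr2-Cre;Ror2fl/+*) and dams were *Ror2fl/fl*. Recombination by this Cre is expected in mesenchyme of the tooth and in the bone around it, and the epithelium is left with intact alleles. As Cre is named only in the labels of the mutants, an effect of the Cre transgene and of the *Ror2* deletion cannot be told apart. Whether a library was made from 1 animal or a pool, and the sex of the animals, are not given in the sources used here, so p-values measure only the spread between these libraries.

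The libraries held 56134770 to 62628940 estimated counts. Together these exceed the total of reads that the methods state for the samples, which the sources used here do not explain. *Ror2* itself, counted over all its exons and not only the floxed one, ranged from 36.2 to 38.2 CPM, that is, counts scaled to a common library size, in controls and from 26.3 to 28.1 CPM in mutants, a decrease of 26.0%. The ameloblast gene *Amelx*, which encodes the enamel protein amelogenin, was the most abundant gene in every library, with 9.15% to 9.97% of all counts in controls and 12.61% to 15.15% in mutants, so libraries labelled dental pulp also held much RNA of an enamel epithelium gene. The odontoblast gene *Dspp*, named after its values were seen, was abundant too, at 2909 to 7979 CPM in controls and 2515 to 6396 CPM in mutants. Letter codes in the labels are WW for control 1, OW for controls 2 and 3 and OR for the mutants, and they are not explained. The number codes begin with another digit in controls than in mutants, which is not explained either. Whether both groups were collected and processed together is not given in the sources used here. A difference of that kind could not be told apart from genotype.

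The dental follicle is the sac of mesenchyme around the developing tooth that gives rise to the periodontal ligament, cementum and part of the alveolar bone. Periostin and the tenascins are matricellular proteins, that is, secreted proteins that bind both collagen-rich matrix and integrin receptors, while scleraxis and Mohawk are transcription factors of tendon and ligament cells and tenomodulin is a membrane protein of the same cells. PTHrP, encoded by *Pthlh*, is a secreted ligand of the G protein-coupled receptor encoded by *Pth1r*, which signals mainly through cyclic AMP, and this axis is needed for tooth eruption.

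The 250 bases before the start of transcription are shown for the 3 matricellular genes, since *Tnn* and *Postn* were the genes that passed the test and *Tnc* had a fold change close to that of *Postn*. They are given 5′ to 3′ on the strand of each gene, from the RefSeq annotation of GRCm38.p6. *Postn* is at chr3:54360857-54361106 (plus strand), *Tnc* at chr4:64047016-64047265 (minus strand) and *Tnn* at chr1:160153576-160153825 (minus strand). Capitals mark every match, on either strand, to CANNTG, the E-box to which basic helix-loop-helix factors such as scleraxis bind, or to TATAAA, a core promoter element that positions the start of transcription in many genes.
*Postn*: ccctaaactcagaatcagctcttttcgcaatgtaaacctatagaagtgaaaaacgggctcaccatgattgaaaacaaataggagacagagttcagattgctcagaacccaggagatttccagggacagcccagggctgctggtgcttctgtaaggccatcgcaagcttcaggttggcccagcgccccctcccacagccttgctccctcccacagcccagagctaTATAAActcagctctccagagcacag
*Tnc*: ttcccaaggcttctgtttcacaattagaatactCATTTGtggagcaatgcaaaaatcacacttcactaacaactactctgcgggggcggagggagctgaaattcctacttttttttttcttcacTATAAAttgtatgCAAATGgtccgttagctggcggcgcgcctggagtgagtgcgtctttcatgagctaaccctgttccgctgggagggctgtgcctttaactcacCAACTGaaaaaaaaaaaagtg
*Tnn*: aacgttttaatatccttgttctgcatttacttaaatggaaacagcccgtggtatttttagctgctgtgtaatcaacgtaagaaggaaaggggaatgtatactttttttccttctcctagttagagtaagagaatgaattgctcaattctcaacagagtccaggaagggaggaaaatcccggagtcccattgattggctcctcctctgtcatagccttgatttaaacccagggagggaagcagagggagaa
The *Postn* window held a TATAAA match 26 to 21 bases before the start and no E-box. The *Tnc* window held 3 E-boxes, which end 212, 108 and 16 bases before the start, and a TATAAA match that ends 121 bases before it. The *Tnn* window held neither. Among all 32851 windows of the same length, 66.2% held CANNTG and 12.4% held TATAAA, so these matches are frequent. The cyclic AMP response element TGACGTCA (1.55% of all windows) and the RUNX motif TGTGGT (14.0%) were searched on both strands as well, and neither was in the windows of *Postn*, *Tnc*, *Tnn*, *Tnmd*, *Pthlh* or *Pth1r*. Some genes have several windows (2 for *Postn*, 2 for *Tnc* and 3 for *Pth1r*), and only the one nearest the GENCODE start of the gene was searched. The window of *Pthlh* belongs to a start 170 bases from its GENCODE start. No window was at hand for *Scx* or *Mkx*.

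In mutant molars, *Tnn* and *Postn* transcripts were lower than in controls, and none of the other 6 genes passed the test. *Tnn* fell by 62.4% and *Postn* by 37.7%. The 3 genes of tendon and ligament cells, *Scx*, *Tnmd* and *Mkx*, had fold changes close to 0 on the log2 scale or with wide intervals. *Pthlh* was higher in every mutant library than in every control, but its adjusted p-value was just above the threshold.

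With edgeR's test and an adjusted p-value below 0.05, 2 of the 8 genes were called, both lower in mutants. Of all genes tested, 20.2% were called, with 9.84% of all genes lower and 10.4% of all genes higher. The groups did not overlap for 3 of the 8 genes, against 44.7% of all genes. Both shares of the 8 are near these backgrounds. The median log2 fold change of the 8 was -0.20, and that of all genes tested was 0.01. In whole-tissue RNA, fewer cells of a type and less RNA per cell cannot be told apart.

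**Figure D1:**
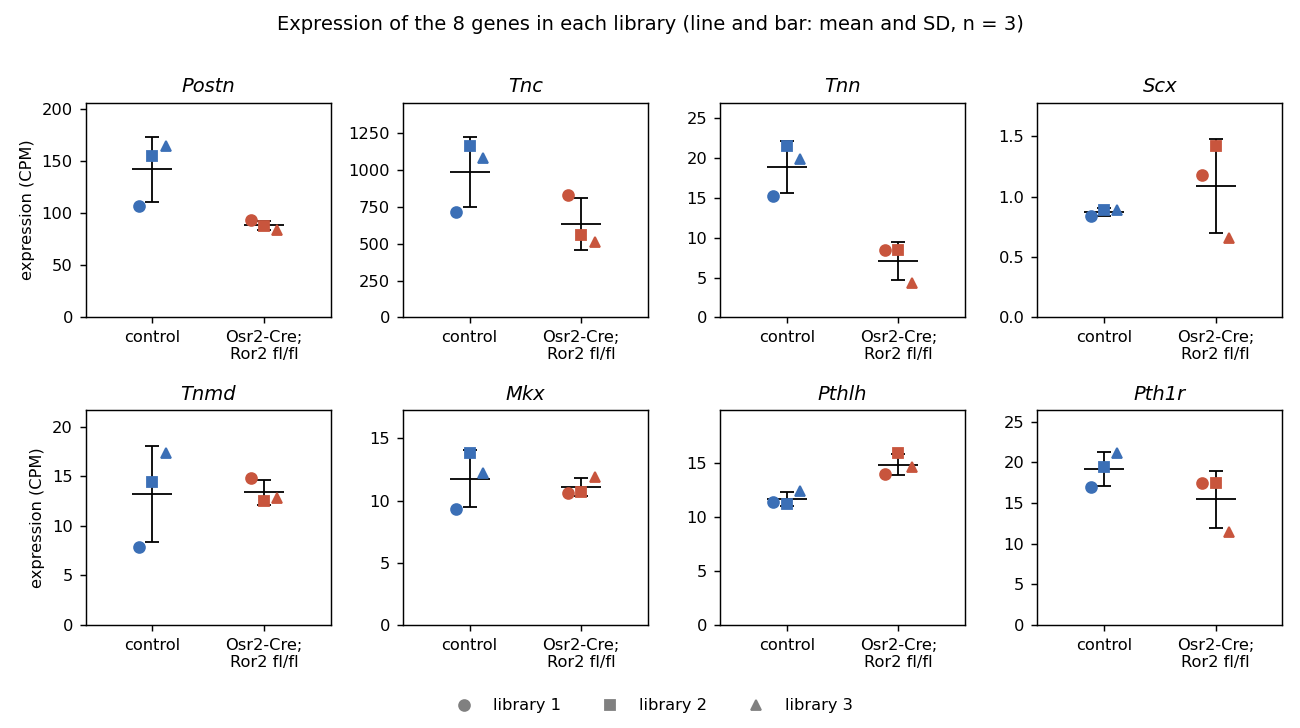
CPM of each of the 8 genes in the 3 control and 3 mutant libraries, 1 panel per gene with its own axis, where points are libraries (symbols only number those of a group) and bars give the mean with its SD (n = 3). *Tnn* lies at 15.2 to 21.5 CPM in controls and at 4.37 to 8.49 CPM in mutants, while the 2 groups overlap for *Tnmd*, *Mkx* and *Scx*.

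*Tnn* encodes tenascin-N, also called tenascin-W, a tenascin of bone, periosteum and ligament that binds integrins (ENSMUSG00000026725.17, chr1:160085029-160153580, minus strand). Control libraries 1 to 3 held 15.2, 21.5 and 19.8 CPM, and mutant libraries 1 to 3 held 8.49, 8.41 and 4.37 CPM. Every mutant library lay below every control, and the highest mutant was well under the lowest control. The mean was 18.8 ± 3.25 CPM in controls and 7.09 ± 2.35 CPM in mutants (SD, n = 3 each), a log2 fold change of -1.41 (SE 0.26, 95% confidence interval -2.0 to -0.82, edgeR adjusted p = 0.010). The call rests on 258 to 1254 counts per library. An exact permutation test gave p = 0.1 (two-sided), the smallest that 3 against 3 allows.

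*Postn* encodes periostin, which takes part in collagen cross-linking and is abundant in the periodontal ligament (ENSMUSG00000027750.16, chr3:54361109-54391037, plus strand). Controls held 107, 155 and 165 CPM, and mutants held 93.4, 87.8 and 84.4 CPM. All mutants lay below the controls, the mutants were close to each other, and control 1 was nearer to the mutants than to the other controls. The means were 142 ± 31.0 and 88.5 ± 4.56 CPM, a log2 fold change of -0.68 (SE 0.16, interval -1.05 to -0.31, edgeR adjusted p = 0.024, exact permutation p = 0.1). With an offset for GC content the value was -0.39 and no longer past the threshold (edgeR adjusted p = 0.11). The call was also lost without control 2 or control 3 (adjusted p = 0.10 in either case) and without mutant 1 (adjusted p = 0.054).

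*Tnc* encodes tenascin-C, a hexameric glycoprotein of condensing mesenchyme and ligament (ENSMUSG00000028364.15, chr4:63959785-64047015, minus strand). Controls held 717, 1165 and 1083 CPM, and mutants held 834, 557 and 512 CPM. Mutant 1 was above control 1, so the groups overlapped. The means were 988 ± 238 and 634 ± 174 CPM, and the log2 fold change of -0.64 (SE 0.24, interval -1.19 to -0.09) was about as large as that of *Postn* but did not pass the test (edgeR adjusted p = 0.089). *Tnc* shares 176 exonic bases, 2.26% of its own, with 8030451A03Rik on the opposite strand, and adding the counts of both left the value at -0.64.

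The matricellular genes were also compared with each other within each library. Per kilobase of exon, *Tnn* had 0.213, 0.208 and 0.180 of the level of *Postn* in the controls and 0.136, 0.143 and 0.0775 of it in the mutants. The same ratio of *Tnn* to *Tnc* was 0.0283, 0.0247 and 0.0244 in controls and 0.0136, 0.0202 and 0.0114 in mutants. Mutants lay below controls in both ratios, by 0.574-fold and 0.568-fold (exact permutation p = 0.1 for each). The ratio of *Postn* to *Tnc* was 0.133, 0.119 and 0.136 in controls and 0.10, 0.141 and 0.147 in mutants, which overlap (exact permutation p = 1.0). These ratios were chosen after the values had been seen.

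**Figure D2:**
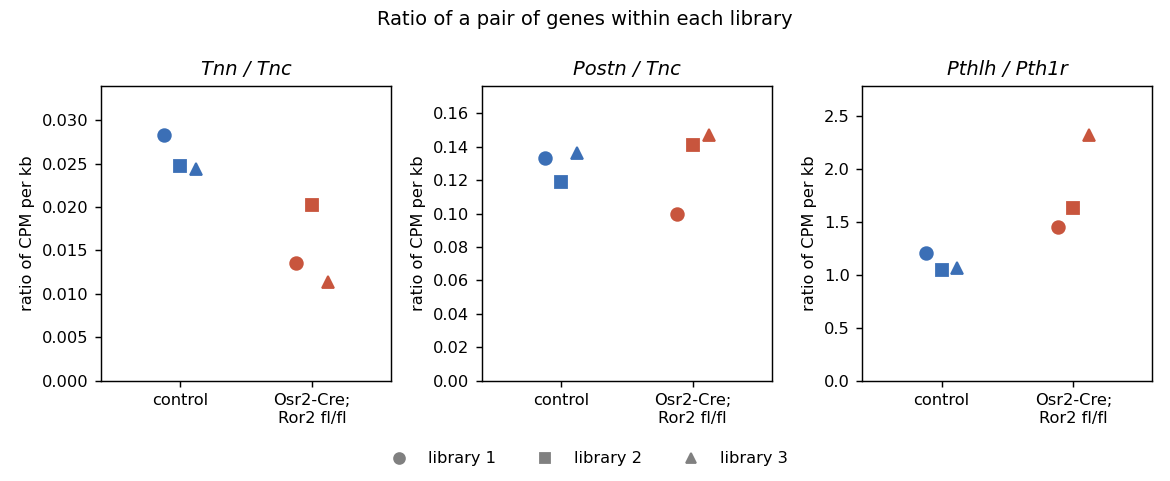
Ratio of the levels (CPM per kilobase of exon) of *Tnn* to *Tnc*, *Postn* to *Tnc* and *Pthlh* to *Pth1r* in each library, on linear axes from 0, where symbols only number the libraries of a group. The ratio of *Tnn* to *Tnc* is 0.0244 to 0.0283 in controls and 0.0114 to 0.0202 in mutants, while that of *Postn* to *Tnc* overlaps between the groups.

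*Scx* encodes scleraxis, a basic helix-loop-helix factor of tendon and ligament progenitors (ENSMUSG00000034161.8, chr15:76457452-76459458, plus strand). It was near the limit of what this depth can compare. Controls held 0.838, 0.892 and 0.891 CPM (52 to 55 counts), and mutants held 1.18, 1.42 and 0.661 CPM (39 to 82 counts). The controls were nearly equal, whereas mutants 1 and 2 lay above them and mutant 3 below. The log2 fold change was 0.32 (SE 0.31, interval -0.40 to 1.03, edgeR adjusted p = 0.49), an interval that holds both a decrease and a doubling. *Scx* lies within the span of *Bop1* on the opposite strand without sharing exonic bases, and *Bop1*, which encodes a ribosome biogenesis factor, was at 29.7 ± 1.77 and 31.1 ± 2.92 CPM.

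*Tnmd* encodes tenomodulin, a type II membrane glycoprotein of mature tendon and ligament cells (ENSMUSG00000031250.8, chrX:133850980-133865577, plus strand). Controls held 7.87, 14.4 and 17.3 CPM, and mutants held 14.8, 12.5 and 12.8 CPM. The mutants all fell within the range of the controls. The log2 fold change was 0.02 (SE 0.25, interval -0.56 to 0.60, edgeR adjusted p = 0.96).

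*Mkx* encodes Mohawk, a homeodomain factor that maintains tendon and ligament matrix genes (ENSMUSG00000061013.6, chromosome 18, minus strand). Controls held 9.32, 13.8 and 12.2 CPM, and mutants held 10.6, 10.7 and 11.9 CPM, again within the range of the controls. The log2 fold change was -0.09 (SE 0.16, interval -0.45 to 0.27, edgeR adjusted p = 0.71). Of its 75-base stretches, 3.96% also occur in other genes, and adding the counts of *Fam81a* and *Serpini1*, which share 23 and 21 of them and were chosen for that after the values were seen, gave -0.28 (edgeR adjusted p = 0.15). The gene with most of the shared stretches, AC148004.2 with 127 of 159, was not analysed here.

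*Pthlh*, the ligand gene (ENSMUSG00000048776.8, chr6:147252101-147264183, minus strand), held 11.4, 11.2 and 12.4 CPM in controls and 14.0, 15.9 and 14.6 CPM in mutants. Every mutant lay above every control. The means were 11.7 ± 0.602 and 14.8 ± 0.949 CPM, and the log2 fold change of 0.35 (SE 0.11, interval 0.10 to 0.59) missed the threshold (edgeR adjusted p = 0.054, unadjusted p = 0.012). *Pth1r*, the receptor gene (ENSMUSG00000032492.14, chr9:110722085-110747145, minus strand), held 17, 19.4 and 21.1 CPM in controls and 17.4, 17.5 and 11.4 CPM in mutants. Only mutant 3 lay below all controls. The log2 fold change was -0.31 (SE 0.18, interval -0.72 to 0.10, edgeR adjusted p = 0.23). It shares 95 exonic bases, 3.25% of its own, with *Myl3* on the opposite strand, a gene with too few counts to be tested. Per kilobase of exon, the ratio of *Pthlh* to *Pth1r* was 1.21, 1.05 and 1.06 in controls and 1.45, 1.63 and 2.32 in mutants, 1.6-fold higher without overlap (exact permutation p = 0.1, a ratio chosen after the values had been seen). Dental epithelium markers went both ways. Of the 11 genes in that list, 3 were higher in every mutant library than in every control, *Amelx* and *Krt14* among them, and 2 were lower in every mutant, among them the enamel matrix gene *Enam* (19867 ± 1467 and 14297 ± 3791 CPM), named after its values were seen. None of the 11 passed in edgeR's test (5 at an unadjusted p under 0.05, 3 with DESeq2 and 1 with limma voom). Summed over 8 of them without the enamel matrix genes, the level was 3318 to 4292 CPM in controls and 4075 to 4693 CPM in mutants, which overlap. The part of these cells in the *Pthlh* values was not tested.

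**Figure D3:**
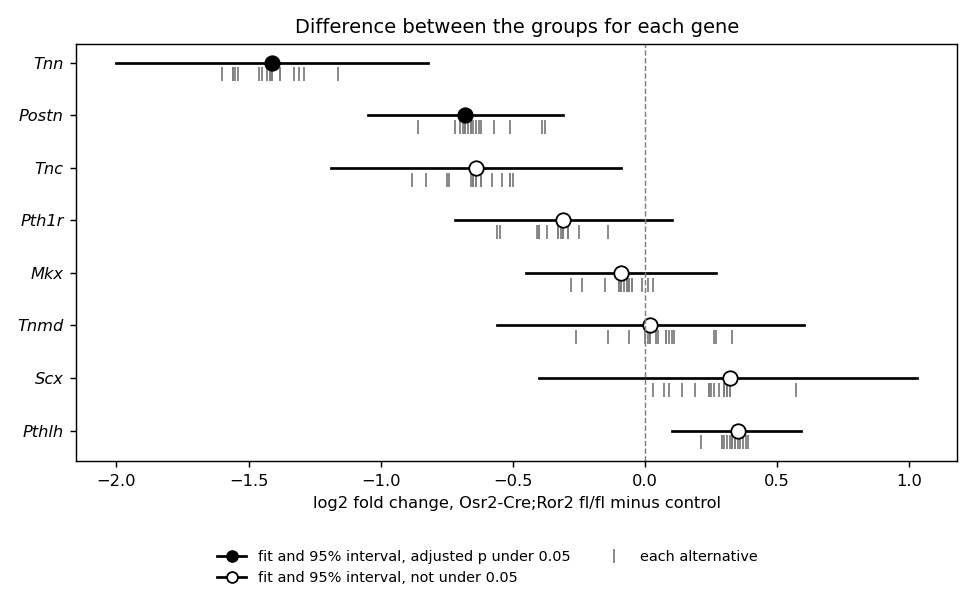
Log2 fold change (mutant minus control) of each of the 8 genes with its 95% confidence interval from edgeR's fit over all genes, with filled circles for an adjusted p-value under 0.05 and short grey ticks for the value under each alternative processing. The intervals of *Tnn*, *Postn*, *Tnc* and *Pthlh* leave out 0, and those of *Scx*, *Tnmd*, *Mkx* and *Pth1r* hold it.

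Levels can be compared between genes only per length of exon. In controls the order in CPM per kilobase was *Tnc* (127 ± 30.7), *Postn* (16.3 ± 3.56), *Tnmd* (9.75 ± 3.58), *Pthlh* (7.21 ± 0.372), *Pth1r* (6.55 ± 0.704), *Tnn* (3.24 ± 0.559), *Mkx* (2.88 ± 0.558) and *Scx* (0.435 ± 0.0152). *Tnc* stood 7.79-fold above *Postn* with no overlap, and *Scx* stood below *Mkx* with no overlap. *Postn* and *Tnmd*, *Tnmd* and *Pthlh*, *Pthlh* and *Pth1r*, and *Tnn* and *Mkx* overlapped between control libraries, so their order is not resolved. In mutants *Pthlh* (9.16 ± 0.586) no longer overlapped *Pth1r* (5.28 ± 1.2), and *Tnn* (1.22 ± 0.405) lay below *Mkx* (2.71 ± 0.180) without overlap.

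For all of the 8 genes but *Scx*, the gene most like it over the 6 libraries is given, as found by the root mean square difference of centred log2 CPM, among genes with a mean of at least 1 CPM. For *Postn* it was *Col3a1*, the chain of type III collagen (difference 0.0501 on the log2 scale), and for *Tnc* it was *Emilin1*, an elastic fiber glycoprotein gene (0.0483). For *Tnn* it was *Rab39b* (0.101), for *Pthlh* *Zfp444* (0.0330), for *Pth1r* *Plekhh2* (0.0455), for *Tnmd* *Prr36* (0.110) and for *Mkx* *Zfp383* (0.0298). Among the 8 genes themselves, *Postn* and *Tnc* were the closest pair at 0.186. Many other genes were closer to either. Of the 15048 genes compared, *Tnc* ranked 394 in likeness to *Postn*, and *Postn* ranked 151 in likeness to *Tnc*.

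Among the tenascins and the matrix partners and receptors of periostin and tenascins, 5 of 17 genes tested fell and none rose (median log2 fold change -0.54), with *Tnc* and *Tnn* included in the list, against 9.84% of all genes lower and 10.4% higher. *Itga8*, the integrin α8 subunit, fell from 16.6 ± 3.58 to 6.50 ± 1.37 CPM (log2 -1.35, edgeR adjusted p = 0.0054). *Itgb8*, the integrin β8 subunit, fell from 8.31 ± 0.490 to 3.63 ± 1.17 CPM (-1.19, adjusted p = 0.014). Beside *Tnn*, the others that fell were *Fn1*, encoding fibronectin (-1.19), and *Tnr*, encoding tenascin-R (-1.47, at 17 to 97 counts per library), both named after their values were seen. *Tnxb*, likewise named afterwards and at 9 to 38 counts per library, did not pass (-1.26, adjusted p = 0.052). Without control 2 or without control 3, 2 of the 17 passed.

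Of the regulators of tendon and ligament cells, 1 of 20 genes tested passed the threshold (median -0.11), a smaller share than the 20.2% of all genes. *Eya2*, a transcriptional coactivator, rose from 5.68 ± 0.807 to 8.35 ± 0.893 CPM (log2 0.56, edgeR adjusted p = 0.039), a call that was lost without control 2 or control 3. The transforming growth factor β receptor gene *Tgfbr1* was at 126 ± 2.43 CPM in controls and 93.3 ± 17.7 CPM in mutants (-0.44, adjusted p = 0.062), and the ligand gene *Gdf5* at 22.3 ± 3.15 and 15.3 ± 4.12 CPM (-0.54, adjusted p = 0.079).

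Of the matrix genes of tendon and ligament, 12 of 35 tested fell, 1 rose, and 30 had a negative log2 fold change (median -0.55), against 9.84% of all genes lower and 10.4% higher. Of the 35, 13 were lower and 1 was higher in every mutant library than in every control, against 44.7% of all genes without overlap. The summed level of the list overlapped between the groups (21727 to 59036 CPM in controls and 17929 to 45034 CPM in mutants). *Omd*, encoding osteomodulin, a small leucine-rich proteoglycan of mineralizing tissue, fell from 134 ± 19.4 to 53.9 ± 10.8 CPM (log2 -1.31, edgeR adjusted p = 0.0027). *Ogn*, encoding osteoglycin of the same family, fell from 142 ± 20.2 to 70.7 ± 10.4 CPM (-1.0, adjusted p = 0.0049). *Col12a1*, encoding a fibril-associated collagen of ligament, fell from 534 ± 157 to 188 ± 43.5 CPM (-1.50, adjusted p = 0.0084). The one that rose was *Eln*, encoding elastin (20.8 ± 2.09 to 30.8 ± 5.84 CPM), named after its values were seen. Without control 2 or without control 3, 3 of the genes passed.

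**Figure D4:**
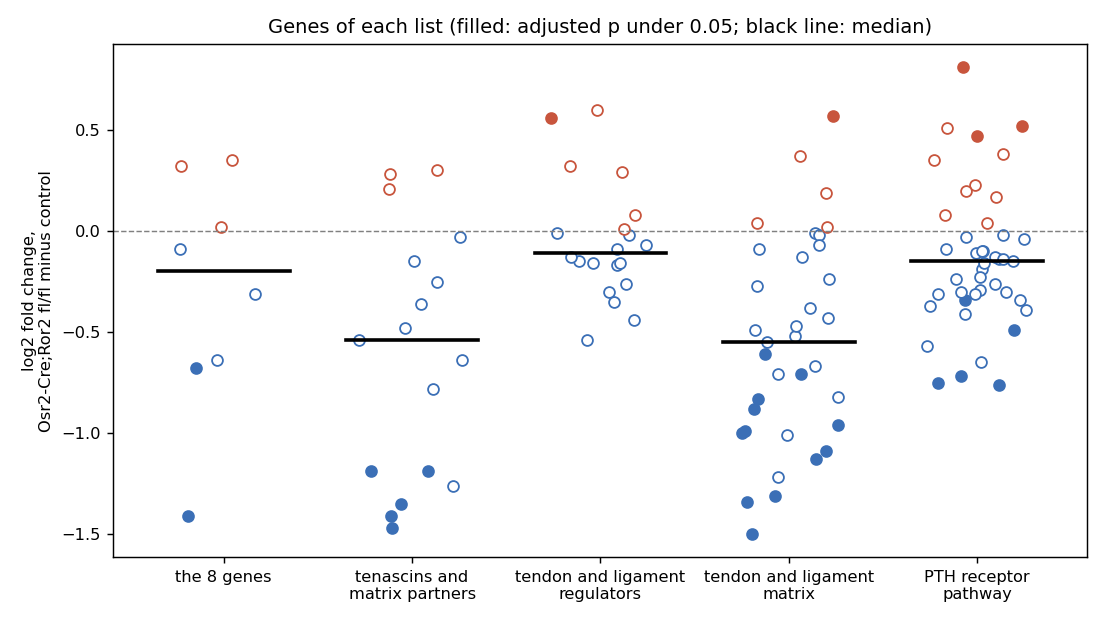
Log2 fold change (mutant minus control) of every gene tested among the 8 genes and in the 4 lists of related genes, with filled circles for an adjusted p-value under 0.05, red above and blue below 0, and a black line at the median. Genes of the tendon and ligament matrix list lie mostly below 0 (median -0.55), whereas tendon and ligament regulators centre near it (median -0.11).

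In the PTH receptor pathway, which runs from the ligands and G proteins through adenylate cyclases and protein kinase A to CREB factors and salt-inducible kinases, 8 of 43 genes passed (5 lower, 3 higher, median -0.15), a share just below the 20.2% of all genes called. The higher genes were *Crtc2*, a CREB coactivator (24.5 ± 0.929 to 42.9 ± 9.0 CPM, log2 0.81), *Sik1*, a salt-inducible kinase (23.0 ± 0.434 to 33.1 ± 2.29 CPM, log2 0.52), and *Hdac5*, a class II histone deacetylase (81.0 ± 3.90 to 112 ± 4.14 CPM, log2 0.47), with edgeR adjusted p-values of 0.010, 0.0096 and 0.012. The lower genes were *Creb1* (-0.76), *Mef2c* (-0.75), *Prkar2b* (-0.72), *Adcy7* (-0.49) and *Prkaca* (-0.34), named after their values were seen. *Gnas*, which encodes the stimulatory G protein subunit coupled to the receptor, was at 1216 ± 49.1 and 1035 ± 126 CPM and did not pass (-0.23, adjusted p = 0.24, also named after its values were seen). Without control 2 none of the 43 passed, and without control 3 only 1 did.

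Markers of other cell types were counted against the same background of 9.84% of all genes lower and 10.4% higher. Of 11 skeletal muscle genes tested, 8 fell, and their summed level was 15.0 to 47.1 CPM in controls and 5.38 to 6.98 CPM in mutants. *Sost*, a gene of osteocytes, fell from 6.62 ± 2.06 to 1.0 ± 0.309 CPM (log2 -2.72, edgeR adjusted p = 0.0014), while *Spp1*, encoding osteopontin, rose from 14.9 ± 4.27 to 34.9 ± 17.6 CPM (1.23, adjusted p = 0.039, named after its values were seen). Of 10 bone and cementum genes tested, 3 fell and 1 rose, and the summed level of that list overlapped between the groups (807 to 1220.4 and 797 to 1228 CPM). The summed level of all 11 dental epithelium genes was 171871 to 192136 CPM in controls and 185325 to 255690.5 CPM in mutants, which overlap. *Amelx* alone held 88628 to 99214 CPM of this sum in controls and 122716 to 160441 CPM in mutants. Of 16 pulp and odontoblast genes, 2 rose past the threshold and none fell past it (5 passed with DESeq2). The log2 fold change was negative in 10 of them and positive in 6 (median -0.21). Of 6 red blood cell genes, 2 fell, and of the endothelial, macrophage and Schwann cell lists 1 gene each passed. When 1 library was left out, 3 to 8 muscle genes (3 without control 2, 5 without mutant 1), 2 to 5 bone and cementum genes (2 without control 2 or control 3), 0 to 3 epithelium genes, 0 to 4 pulp genes and 0 to 5 red blood cell genes passed. The part of muscle, bone or epithelium cells in the values of *Tnn*, *Postn* and the ligament lists was not tested.

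**Figure D5:**
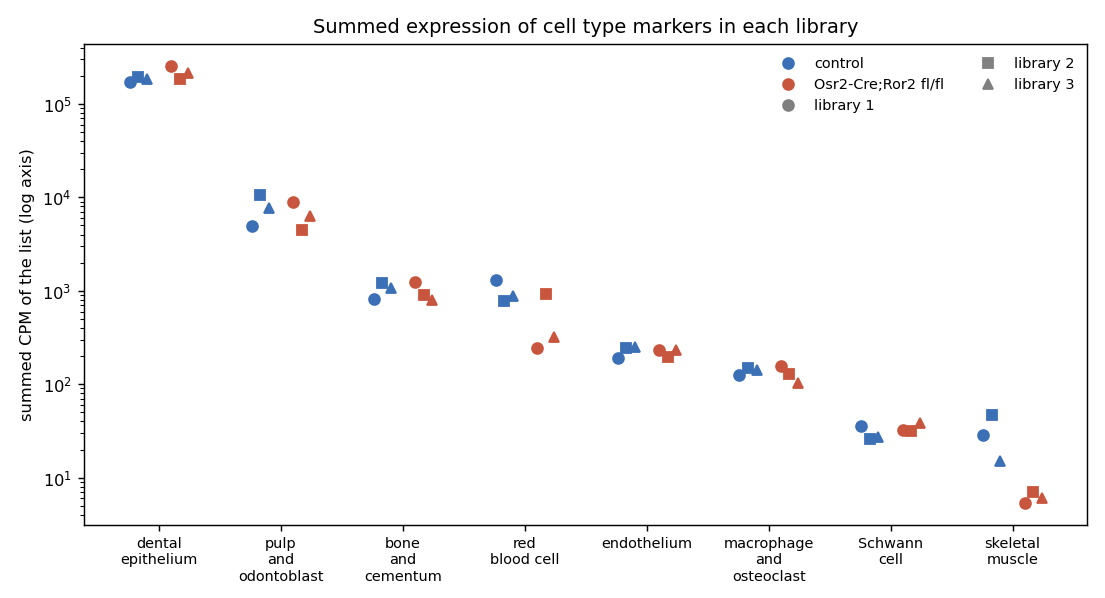
Summed CPM (log axis) of each of 8 cell type marker lists in each library, with control libraries in blue and mutant libraries in red, where symbols only number the libraries of a group. The muscle markers are lower in every mutant library (5.38 to 6.98 CPM) than in every control (15.0 to 47.1 CPM), whereas the bone and pulp sums overlap.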

How the data were processed

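RNA of 3 control (*Ror2fl/fl*) and 3 mutant (*Osr2-Cre;Ror2fl/fl*) libraries was sequenced in single-end reads of 75 cycles, and the authors deposited estimated counts per gene. The methods name TopHat, while the submitters' processing notes name STAR 2.6.1d and Partek, on the mm10 genome. Strand use and the treatment of reads that fit several genes are not given in the sources used here. A second table deposited by the authors holds normalized signal, made by adding 1 to the estimated counts and scaling each library by its own factor, with no division by gene length. It served only in alternatives. The count table holds 6 further columns that no label assigns to these groups, which were not used.

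Estimated counts were rounded, for which the design had provided. They were compared with edgeR 4.0.16 (R 4.3.3, quasi-likelihood test, TMM, filterByExpr, Benjamini-Hochberg adjustment over the 19330 genes tested, no block). CPM used the TMM factors. Exact permutation tests (two-sided) were run on log2 CPM, prior count 2. Alternatives used DESeq2 1.42.0 and limma 3.58.1. The edgeR scripts were tested on simulated counts. No library was found to be a copy of another one.

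The 8 genes and all lists were chosen with earlier results of these data known. Genes named in the text are the 8, *Ror2*, the 3 with the smallest p-value in each list, genes overlapping the 8, and the gene most like each; a few genes under this rule are not reported here, and any other is named as chosen after its values were seen. Coordinates follow GENCODE release M21 (GRCm38), and promoter windows RefSeq.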

Additional observations from a re-analysis of the deposited data

How the results depend on the processing

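Of the 8 genes, *Tnn* kept its direction and its call in all 18 alternatives (log2 fold change -1.60 to -1.16, adjusted p 1.6e-06 to 0.046), and *Postn* in 12 of 18. *Postn* kept its direction but lost its call with a replicate block (-0.66, adjusted p = 0.053), with a GC offset (-0.39) and with both together (-0.38), and leaving out 1 library gave -0.86 to -0.57. *Tnc* passed in 2 of 19 alternatives, with DESeq2 (-0.64) and with library size alone (-0.66). Its edgeR adjusted p was 0.26 without control 2 and 0.24 without control 3. *Pthlh* passed in 2 of 18, with DESeq2 (0.34) and with a filter at 1 CPM (0.37). The value of *Pthlh* was 0.21 with a length offset (edgeR adjusted p = 0.17) and 0.29 with block and GC offset together (edgeR adjusted p = 0.23). *Tnmd* turned to -0.14 with a length offset and ranged from -0.26 to 0.26 without 1 library. *Mkx* turned to 0.01 with the block and GC offset together and ranged from -0.24 to 0.03 without 1 library. *Pth1r* kept its direction and passed in none of 19 alternatives (-0.56 to -0.14). Its value was -0.55 with the GC offset (edgeR adjusted p = 0.056) and -0.14 without mutant 3. *Scx* was not tested under the 1 CPM filter. Over all genes, 3906 calls became 2013 with the replicate block and 1271 with block and GC offset, and 872 to 5001 when 1 library was left out (872 without control 3, 910 without control 2, 2404 without mutant 1). Of the 8 genes, 4 passed with DESeq2, 1 with the block, 1 with the GC offset, 1 with both, and 1 to 2 when a library was left out. The cause of these changes was not tested. The methods speak of 3 pairs of samples, but no label says which libraries belong together. The main fit was planned without a block for that reason, with the replicate block as an alternative. That block joined libraries by the index number in their labels, which nothing says marks pairs. Deviations from the group means had correlations of -0.10, -0.08 and -0.004 between same-numbered control and mutant libraries. The other combinations gave -0.037 to 0.10. Deviations within a group of 3 depend on each other, so these values cannot show whether libraries were paired. Of 216 counts of list genes under alternatives, 158 stayed within 1.5 times and 58 moved. With 3 libraries per group, changes in *Scx*, at 39 to 82 counts, can be resolved only if large.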

Other observations

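Among the controls, control 1 held the lowest level of 7 of the 8 genes, all but *Pthlh*, while 41.4% of all genes tested were lowest there. Among the mutants, mutant 3 held the lowest level of 5 of the 8 (*Postn*, *Tnc*, *Tnn*, *Scx* and *Pth1r*), against 31.8% of all genes. These counts were made after the values had been seen.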
